A study of Mus musculus with 6 samples.

Results

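The Zscan4 family of the mouse is a tandem cluster of near-identical zinc finger genes on chromosome 7. Its 6 members named Zscan4a to Zscan4f were looked up by symbol in the study's RNA sequencing table of 24421 genes. A row was found for 5 of the 6, Zscan4a, Zscan4b, Zscan4c, Zscan4d and Zscan4f, and Zscan4e was not analysed here. The RNA came from E14 mouse embryonic stem cells, with 2 wild-type libraries and 2 libraries of Pml-/- cells. The product of Pml is the protein around which PML nuclear bodies assemble. Both genotypes were exposed to 10 µM paraquat, which cycles between redox states and generates superoxide, for 15 h. Both were grown with leukemia inhibitory factor, CHIR99021 (a GSK3 inhibitor) and PD0325901 (a MEK inhibitor). These 4 libraries include no untreated cells, so the comparison is between genotypes under paraquat and holds no effect of paraquat itself. The labels state neither whether the Pml-/- cells are 1 clone nor whether the libraries of a genotype are separate cultures. The p-values therefore cover just the variation between these libraries, which could be technical. A further 2 chromatin samples of the series were not analysed here.

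Zscan4 proteins combine a SCAN domain, which pairs with other SCAN domains, and zinc fingers that bind DNA. The genes are active in the early mouse embryo around the first activation of its genome. In stem cell cultures they are transcribed in bursts in a small part of the cells, together with other genes of that embryonic stage, and the transcription factor Dux can switch them on. Zscan4 bursts are known for telomere lengthening and for a passing loss of DNA methylation. Zscan4c, Zscan4d and Zscan4f encode the full-length protein, while RefSeq lists Zscan4a as a transcribed pseudogene and Zscan4e as a pseudogene. Short reads can match several copies, and how such reads were counted is not stated. Levels of single copies are therefore uncertain, and the sum over the copies depends less on how reads were split.

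The likeness of the copies is shown by the sequence before their starts. RefSeq promoter entries (GRCm38.p6) were at hand for 4 members. Each stretch of 160 bases is written 5′ to 3′ on the strand of its gene and ends before the annotated start. The stretches are aligned on the letters TATAAAA, a common form of the TATA box, which the capitals mark.
Zscan4b, chr7:10905051-10905210, minus strand: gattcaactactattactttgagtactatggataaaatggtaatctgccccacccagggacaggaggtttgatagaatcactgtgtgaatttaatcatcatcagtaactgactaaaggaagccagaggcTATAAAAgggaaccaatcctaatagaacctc
Zscan4c, chr7:11005562-11005721, plus strand: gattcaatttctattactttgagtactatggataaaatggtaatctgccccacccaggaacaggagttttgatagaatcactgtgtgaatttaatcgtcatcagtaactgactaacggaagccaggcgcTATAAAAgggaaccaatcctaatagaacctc
Zscan4d, chr7:11166183-11166342, minus strand: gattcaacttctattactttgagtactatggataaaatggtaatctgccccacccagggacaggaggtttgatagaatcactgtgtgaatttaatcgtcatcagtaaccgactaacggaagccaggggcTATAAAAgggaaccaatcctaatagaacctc
Zscan4f, chr7:11397755-11397914, plus strand: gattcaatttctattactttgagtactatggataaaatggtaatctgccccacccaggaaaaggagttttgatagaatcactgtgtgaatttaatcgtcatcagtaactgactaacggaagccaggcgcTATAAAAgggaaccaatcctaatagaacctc

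In 150 of the 160 positions all 4 copies had the same base. Zscan4c and Zscan4f differed at 1 position, and the least alike pair, Zscan4b and Zscan4f, at 9. Over the 250 bases before the starts, aligned pairs were 94.7 to 99.6% identical (6 pairs). The first letter of TATAAAA lay 31 bases before the annotated start in Zscan4b and Zscan4f, 54 bases in Zscan4c and 65 bases in Zscan4d. Because the 4 windows are so alike, they do not count as separate observations in the motif counts that follow. On either strand, TATAAAA occurred in 4 of the 4 windows and in 4.98% of 32851 promoter windows of equal length. TGATT and AATCA with any 1 base between them, letters of a Dux binding motif, occurred in 0 of the 4 and in 0.0304% of all. TGCACAC, letters of a Zscan4 binding motif, occurred in 0 of the 4 and in 3.67% of all. The windows of Zscan4c, Zscan4d and Zscan4f held 3 CpG sites each and that of Zscan4b 1, where the median promoter held 6. Such matches describe letters in these windows and nothing about a factor.

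Some facts of the libraries bear on the family. They held 31384794 to 44130093 reads, so 1 CPM (1 read per 1000000 reads counted in genes) stood for 31.4 to 44.1 reads. Pml, the targeted gene, fell from 238 and 228 CPM in wild type to 78.7 and 89.7 CPM in Pml-/- cells, where 36.2% of its level was left. The disrupted part of the gene is not named in the labels, so the remaining reads cannot be placed. All 4 tested Y-linked genes fell, Ddx3y by 18.6-fold, Eif2s3y by 25.4-fold, Uty by 39.2-fold and Uba1y by 10.4-fold, and the 9 on the list summed to 291 and 286 CPM against 14.6 and 13.6 CPM. The label of wild-type library 2 names a DNA library kit, whereas the entries of the other 3 libraries name an RNA kit. All 8 embryonic stem cell markers were detected, with sums of 6723 to 6903 CPM over the 4 libraries; Tfcp2l1 rose (adjusted p = 0.0241) and Zfp42 fell (adjusted p = 0.00251). The call of Tfcp2l1 ended without wild-type library 1 (adjusted p = 0.319), without knockout library 1 (0.0509) and with low genes kept (0.146). Of 7 fibroblast feeder markers, 3 were tested (Col1a1, Thy1 and Pdgfra) and 0 passed with limma, with edgeR or at an unadjusted p under 0.05. Their list summed to 8.09 to 8.63 CPM in wild type and 6.74 to 7.64 CPM in Pml-/- cells, and Dcn had 0 reads. Of 6 primitive endoderm markers, 2 were tested (Gata4 and Pdgfra), again with 0 by each of these 3 counts, and sums of 7.05 to 7.71 against 6.66 to 9.01 CPM. Trophoblast markers summed to 71.4 to 77.6 CPM in wild type and 93.0 to 95.1 CPM in Pml-/- cells. Of the 4 tested, Tfap2c rose from a mean of 52.5 to 71.3 CPM, and Krt8, Krt18 and Eomes did not pass. The sum is thus mostly Tfap2c. The untested members averaged under 1 CPM in wild type and Pml-/- cells: Cdx2 0.71 and 0.71, Elf5 0.023 and 0.026, and Hand1 0.15 and 0.27 CPM. Of all 12710 genes tested with limma, 1.95% were called higher, 3.45% lower and 5.41% in either direction, and 2454 had an unadjusted p under 0.05. With edgeR 4.19% were called in either direction. The counts of 0 of 3 and 0 of 2 are near these shares and say little about those markers. The part of the Y-linked, kit and marker differences in the Zscan4 results was not tested.

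Zscan4 RNA was more abundant in Pml-/- cells. The 5 copies summed to 14.2 and 12.1 CPM in the wild-type libraries, and in those of Pml-/- cells to 24.8 and 25.3 CPM. Both Pml-/- libraries lay above both wild-type libraries. Mean levels were 13.1 ± 1.51 CPM and 25.1 ± 0.32 CPM (SD, n = 2 each), a ratio of 1.91. Taking 1 library of each genotype at a time, the ratio ran from 1.75 to 2.09. Leaving out wild-type library 2, the one with the DNA kit label, it was 1.76. The wild-type sums rest on 446 and 533 reads and the Pml-/- sums on 948 and 1106. Exact Poisson 95% intervals of the wild-type sums were 12.9 to 15.6 and 11.1 to 13.1 CPM, and those of the Pml-/- sums 23.3 to 26.5 and 23.8 to 26.8 CPM. These intervals cover counting error only and do not meet between genotypes. In bulk RNA, a larger number of cells with Zscan4 RNA and more Zscan4 RNA per cell cannot be told apart. An exact two-sided permutation test of 2 libraries against 2 cannot go below 0.333, and none was run on the sum.

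**Figure D1:**
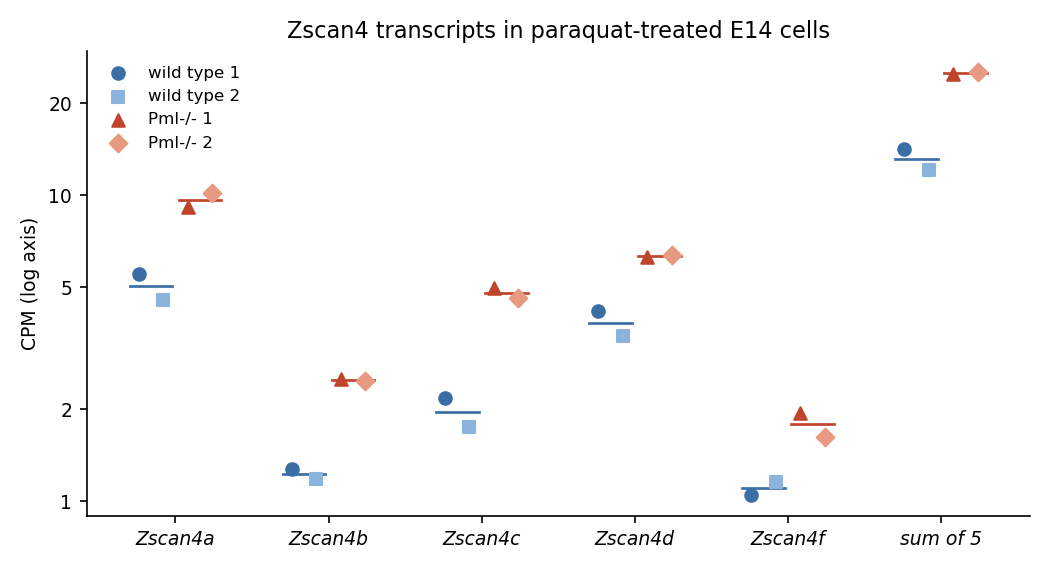
CPM (log axis) of each Zscan4 copy and of their sum, with 1 point per library and bars at group means (n = 2). In every copy both Pml-/- points lie above both wild-type points, and the mean of the sum goes from 13.1 to 25.1 CPM.

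Single copies were read from 1 limma-trend fit of log2(CPM + 1) over the 12710 genes whose mean reached 1 CPM, with Benjamini-Hochberg adjustment over all of them and a threshold of 0.05. Log2 differences are Pml-/- minus wild type on this scale, where changes of low genes come out smaller than they are. In this fit 4 of the 5 copies rose and none fell. Of all tested genes, 1.95% were called higher and 5.41% in either direction. By edgeR on the reads recovered from CPM, the same 4 copies were called, against 1.48% of genes called higher and 4.19% in either direction. The median log2 difference of the copies was 0.65, and that of all tested genes -0.0029. In all 5 copies both Pml-/- libraries exceeded both wild-type libraries, which was so for 23.8% of tested genes. Each copy averaged over 1 CPM in both genotypes, so none passed the filter through Pml-/- cells alone. Copies that share reads are not independent of one another.

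Among the copies for the full-length protein, Zscan4c (chromosome 7, 11005745 to 11010547) was counted at 2.17 and 1.74 CPM in wild-type cells. Its Pml-/- values were 4.98 and 4.62 CPM, both far above the wild-type pair. The mean rose 2.45-fold, 1.96 ± 0.30 against 4.80 ± 0.25 CPM (n = 2 each), a log2 difference of 0.98 (SE 0.15; limma adjusted p = 0.00145). Only 2 of the 12710 genes had a larger log2 difference on this scale, which put Zscan4c at rank 3. Zscan4a ranked 11, Zscan4b 28, Zscan4d 35 and Zscan4f 159. It had 68 and 77 wild-type reads and 190 and 202 Pml-/- reads.

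Zscan4d (11161643 to 11166148) was counted at 4.17 and 3.47 CPM in wild-type cells. Its Pml-/- values, 6.29 and 6.38 CPM, were higher and closer to each other. The mean rose 1.66-fold, a log2 difference of 0.61 (SE 0.14; limma adjusted p = 0.0162). Zscan4d no longer passed when knockout library 1 or 2 was left out (adjusted p = 0.0659 and 0.101) or when low genes were kept in the fit (adjusted p = 0.0994).

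Zscan4f (11397915 to 11402318) was the copy that did not pass. It was counted at 1.05 and 1.16 CPM in wild-type cells, on 33 and 51 reads. Its Pml-/- values were 1.94 and 1.62 CPM, on 74 and 71 reads, and the genotypes did not overlap. The ratio of means was 1.61 and the log2 difference 0.40, with a 95% interval of 0.036 to 0.77 (limma adjusted p = 0.212, unadjusted p = 0.0336). Zscan4c, Zscan4d and Zscan4f together amounted to 7.39 and 6.37 CPM in wild-type cells. Their Pml-/- sums were 13.2 and 12.6 CPM, a ratio of 1.88, which is near that of all copies.

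Zscan4a (10794241 to 10799065), the transcribed pseudogene, was counted at 5.54 and 4.53 CPM in wild-type cells. Its Pml-/- values were 9.12 and 10.2 CPM, both higher, and the library-to-library SD was similar in the genotypes (0.72 and 0.76 CPM). The mean rose 1.92-fold, a log2 difference of 0.82 (SE 0.13; limma adjusted p = 0.00176). Without Zscan4a the remaining copies summed to a ratio of 1.90, so the higher sum did not rest on it.

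Zscan4b (10900740 to 10905050) was counted at 1.27 and 1.18 CPM in wild-type cells. Its Pml-/- values were 2.52 and 2.47 CPM, and libraries of a genotype lay close together. The mean rose 2.03-fold, a log2 difference of 0.65 (SE 0.16; limma adjusted p = 0.0296). Zscan4b too no longer passed without knockout library 1 or 2 (adjusted p = 0.118 and 0.149) or with low genes kept (adjusted p = 0.0604). Without wild-type library 2, Zscan4a, Zscan4b, Zscan4c and Zscan4d all passed, with adjusted p from 0.000195 for Zscan4c to 0.0478 for Zscan4d.

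In the authors' deposited table, read as knockout over wild type, the log2 fold changes were 1.31 for Zscan4c, 1.03 for Zscan4b, 0.95 for Zscan4a, 0.74 for Zscan4d and 0.68 for Zscan4f. False discovery rates in the authors' deposited table were 4.60e-10 for Zscan4c, 3.52e-08 for Zscan4a, 0.000206 for Zscan4d, 0.000378 for Zscan4b and 0.122 for Zscan4f. The authors' deposited table thus has the same 4 copies under 0.05, and 1.42% of its 24421 genes higher in the knockout at that threshold.

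The reads of the family were then divided among the copies. The shares below are of reads, not scaled by transcript length, so they do not rank the copies by number of transcripts. Zscan4a had 39.0 and 37.5% of the reads in wild type and 36.7 and 40.3% in Pml-/- cells, which overlap. Zscan4b had 8.97 and 9.76% against 10.1 and 9.76%, and Zscan4f 7.40 and 9.57% against 7.81 and 6.42%. In Zscan4a and Zscan4f the genotypes overlapped, and in Zscan4b they nearly met.

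Zscan4c had a larger share in both Pml-/- libraries, 20.0 and 18.3% against 15.2 and 14.4% in wild type. Exact binomial (Clopper-Pearson) 95% intervals overlapped, for example 12.0 to 18.9% in wild-type library 1 and 17.5 to 22.7% in knockout library 1. Zscan4d had a smaller one, 25.3 and 25.2% against 29.4 and 28.7%, again with overlapping intervals (24.9 to 32.8% in wild-type library 2 and 22.6 to 28.2% in knockout library 1). Whether the copies differ in their fold was not tested.

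**Figure D2:**
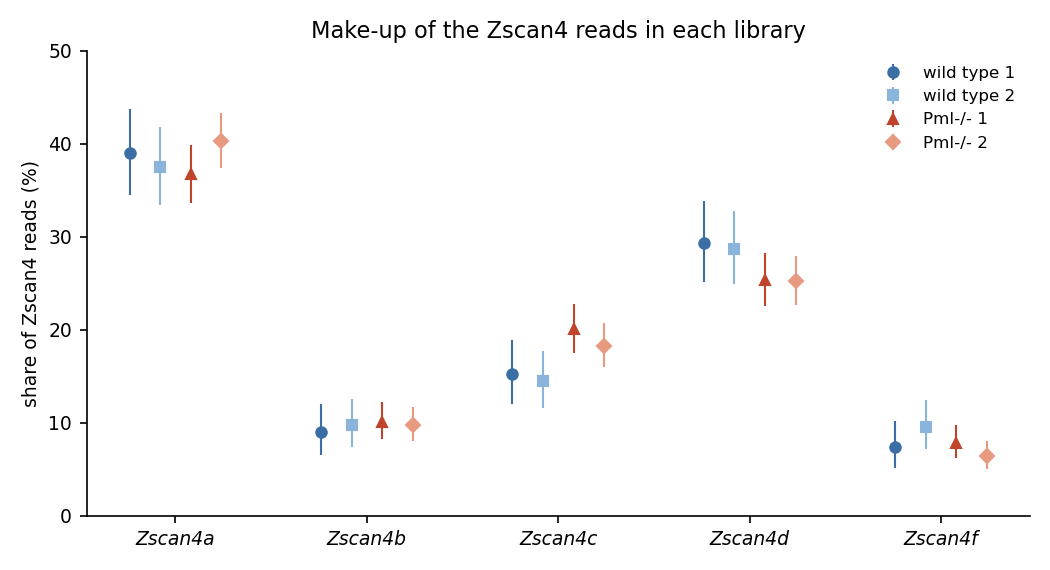
Share of each library's Zscan4 reads assigned to each copy, in percent, with exact binomial 95% intervals that cover counting error only. In Pml-/- cells the mean share of Zscan4c is 4.31 percentage points above wild type and that of Zscan4d differs by -3.77 points, with overlapping intervals.

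Just 3 genes around the cluster could be tested. The cluster with its RefSeq pseudogenes spans 820 kb (chromosome 7, 10794241 to 11614112) in a region rich in vomeronasal receptor genes, which serve pheromone sensing. Within the span the table has 1 other row, the microRNA gene Mir297-1, with 0 reads. Within 1000 kb on either side it has 32 rows, of which 28 had no read and 3 were tested. None of these 3 passed with limma or edgeR, and 0 had an unadjusted p under 0.05. Of all tested genes 5.41% were called with limma, so 0 of 3 is near that share. The nearest tested gene before the cluster, the zinc finger gene Zik1, was counted at 21.2 and 22.3 CPM in wild-type cells and 21.8 and 22.5 CPM in Pml-/- cells. Its log2 difference was 0.028, with a 95% interval of -0.15 to 0.21. After the cluster came Zfp551, also a zinc finger gene, with 3.44 and 3.74 CPM against 3.49 and 3.59 CPM. Its log2 difference was -0.016 (95% interval -0.32 to 0.29), and in both genes the genotypes overlapped.

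**Figure D3:**
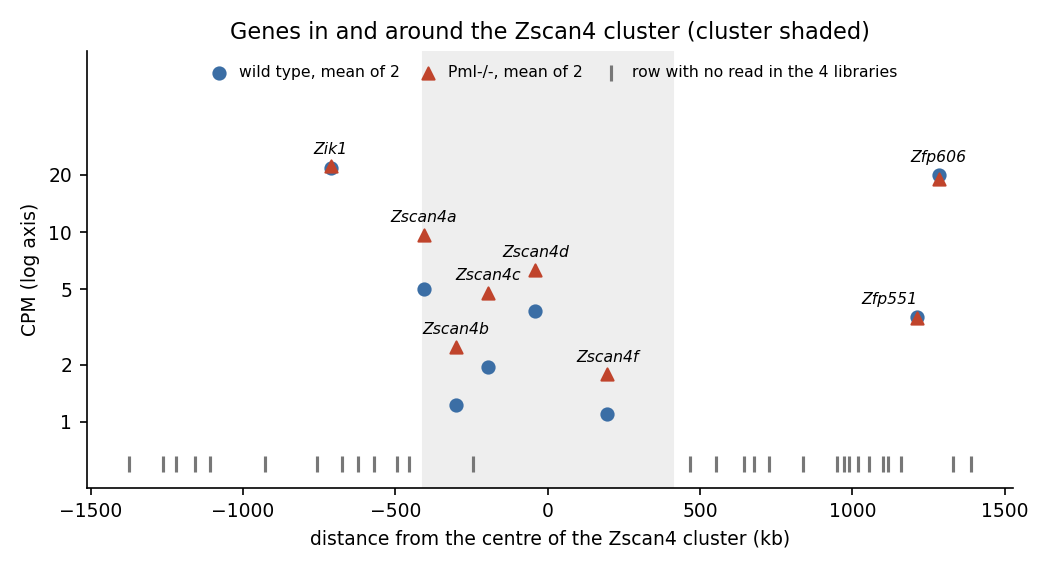
Mean CPM (log axis, n = 2 libraries per mean) against distance in kb from the centre of the Zscan4 cluster, with ticks for rows that had no read. The 5 copies are higher in Pml-/- cells, while the 3 tested neighbours, Zik1, Zfp551 and Zfp606, have nearly equal means.

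Other genes of the 2-cell-like state, the passing state in which stem cells transcribe Zscan4, rose as well. Of 30 listed genes 13 were tested, each averaging at least 1 CPM in both genotypes. Of these, 8 rose and none fell (median log2 difference 0.64), where 1.95% of all tested genes were called higher. With edgeR, which tested 21 of the listed genes, the same 8 were called higher and none lower. Of all genes tested with edgeR, 1.48% were called higher. The 8 include Usp17la, Usp17lb, Usp17lc and Usp17le, related copies that may share reads and so are not independent of one another. Whether the others called, Gm8300, Gm5662, Gm2016 and Gm20767, share reads was not tested. The count of 8 is therefore not one of independent genes. Tmem92, Arg2, Gm2022, Gm12794 and Ddit4l did not pass. Usp17lb, a gene of a multi-copy deubiquitinase family, was counted at 1.91 and 2.11 CPM in wild-type cells and rose to 4.27 and 4.78 CPM (2.25-fold, limma adjusted p = 0.00288). Its relative Usp17le rose 2.19-fold (adjusted p = 0.00456). The predicted genes Gm8300 and Gm5662 rose 1.84-fold and 1.81-fold (adjusted p = 0.00385 and 0.00601). In each of these 4 genes both Pml-/- libraries exceeded both wild-type libraries, which was so for 23.8% of tested genes. They were named for the smallest adjusted p of the list, a choice that favours genes whose libraries do not overlap. The count of 8 depended on the libraries and the filter: it was 5 and 3 without knockout library 1 and 2, and 1 with low genes kept, which was Usp17lb. Usp17le and Gm8300 were among those lost without knockout library 2 (adjusted p = 0.0525 and 0.0557).

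Dux, the activator of these genes, was below the filter and is named after its values were seen. It had 4 and 11 reads in wild-type cells and 15 and 38 in Pml-/- cells, or 0.13 and 0.25 CPM against 0.39 and 0.87 CPM. The Pml-/- libraries were higher and further apart. The ratio of means was 3.35, and by edgeR its adjusted p was 0.127, so the difference did not pass.

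**Figure D4:**
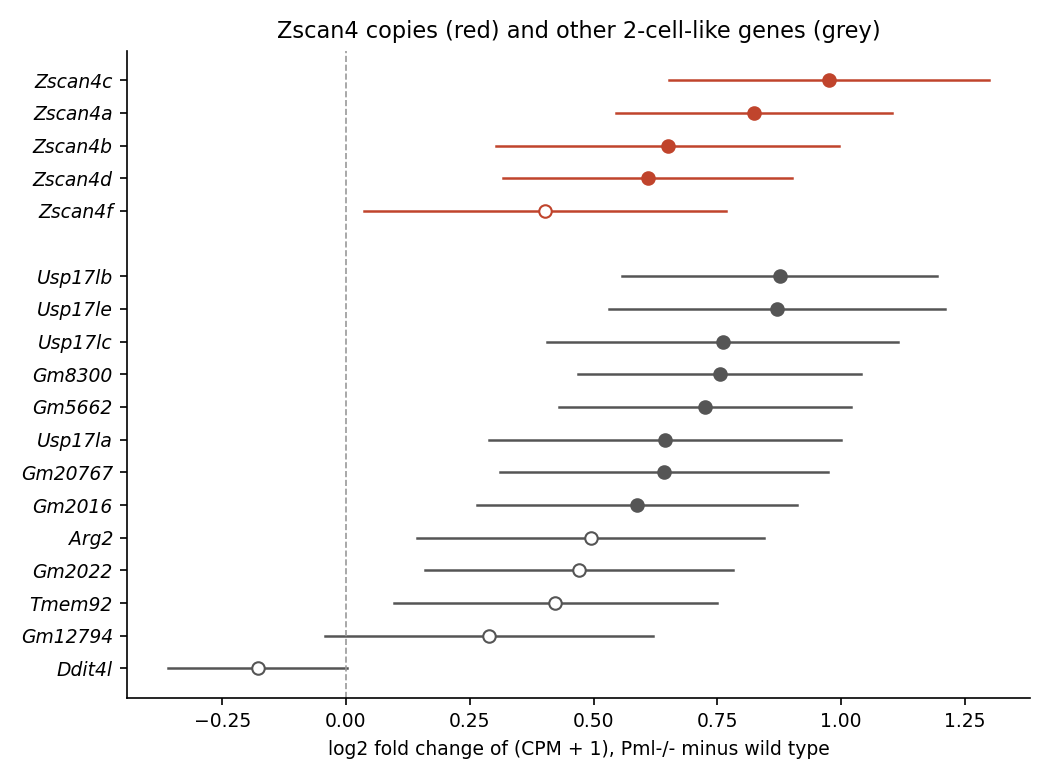
Log2 difference of CPM + 1 (Pml-/- minus wild type) with 95% intervals, for the 5 Zscan4 copies in red and the 13 other tested 2-cell-like genes in grey; filled points have an adjusted p under 0.05. Filled are 4 of 5 copies and 8 of 13 other genes, and among the 13 only Ddit4l lies below 0.

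Of 30 tested regulators of Zscan4 and the 2-cell-like state, 1 rose and 1 fell (median log2 difference 0.036), a share near the 5.41% of all tested genes called in either direction. Lin28a, which encodes an RNA-binding protein of stem cells, rose from 190 and 184 CPM to 227 and 228 CPM (limma adjusted p = 0.00189). Dnmt1, the maintenance DNA methyltransferase, fell from 480 and 479 CPM to 436 and 424 CPM (limma adjusted p = 0.0418). That call ended with TMM scaling (adjusted p = 0.0606), with edgeR (0.0666), with low genes kept (0.112) and without wild-type library 1 (0.219), wild-type library 2 (0.138) or knockout library 2 (0.0916). Of 3 genes picked for their roles after their values were seen, the activators Dppa2 and Dppa4 averaged 86.3 and 63.8 CPM in wild-type cells, against 83.2 and 59.3 CPM. Rif1, which restrains Zscan4, averaged 606 and 629 CPM (limma adjusted p = 0.548).

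Of 26 tested meiotic recombination genes, 8 fell, none rose and 18 did not pass, where 3.45% of all tested genes were called lower. The median log2 difference was -0.080, and 9 of the 26 lay above 0. Smc1b, a meiotic cohesin subunit, fell from 30.3 and 28.8 CPM to 14.3 and 14.7 CPM (limma adjusted p = 5.51e-06). Hormad1, a chromosome axis gene, fell from 19.8 and 17.0 CPM to 6.82 and 8.12 CPM (adjusted p = 1.47e-05). Rec114, needed for meiotic DNA breaks, and Hsf2bp, a partner of the repair protein Brca2, fell 2.11-fold and 1.37-fold. In all 4 the genotypes were apart, which is favoured by their choice as the smallest adjusted p of the list. No alternative ended these calls. The count of 8 went to 5 with low genes kept, where Hormad2, Tex11 and Tex15 were lost (adjusted p = 0.0578, 0.153 and 0.0793). Without 1 library it ran from 6 to 8, and Tex15 was lost whichever library was left out (adjusted p from 0.0519 to 0.0993). Tex11 was lost with edgeR (0.0504) and when wild-type library 1 (0.199) or knockout library 2 (0.274) was left out. Of 2 genes named after their values were seen, the recombinase Dmc1 had 5.42 and 4.01 CPM against 4.09 and 4.003 CPM (adjusted p = 0.60), and Spo11, which makes the breaks, had 1 read in all.

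Of 29 tested telomere maintenance genes, 1 fell and none rose (median log2 difference -0.0087), a share near the 3.45% of all tested genes called lower. The gene was Rad50, a DNA break repair gene, with 96.6 and 99.3 CPM in wild-type cells and 77.1 and 81.2 CPM in Pml-/- cells (limma adjusted p = 0.00389). Of 10 tested genes of DNA methylation and demethylation, 5 fell and none rose (median log2 difference -0.12), where 3.45% of all tested genes were called lower. The list mixes opposing roles, so the count gives no direction for methylation. Uhrf1, which brings Dnmt1 to newly copied DNA, fell from 648 and 657 CPM to 580 and 565 CPM (limma adjusted p = 0.0143). Of the others, Dnmt3l fell 1.31-fold, Dnmt3a 1.17-fold and the demethylation gene Tet3 1.35-fold. Each of the 5 calls, Dnmt1 included, was lost without wild-type library 1 (adjusted p from 0.0579 to 0.25) and with low genes kept (from 0.0529 to 0.112). Uhrf1 also did not pass without wild-type library 2 (adjusted p = 0.0741), Tet3 without knockout library 1 (0.0528) and Dnmt3a without knockout library 2 (0.0708). Neither telomere length nor DNA methylation was measured in these libraries.

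Other SCAN domain and related zinc finger genes were nearly centred on 0. Of 22 tested, 0 passed with limma and 0 with edgeR, and 2 had an unadjusted limma p under 0.05 (median log2 difference 0.0016). Of all tested genes 5.41% were called with limma and 4.19% with edgeR, so 0 of 22 is near these shares. An unadjusted limma p under 0.05 was reached by 2454 of all 12710. Zscan10, a stem cell member named after its values were seen, was counted at 172 and 164 CPM in wild-type cells against 165 and 164 CPM.

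The genes most like the Zscan4 sum across the 4 libraries were found from profiles, each library taken as a percentage of the gene's total. The family's profile was 18.6 and 15.8% in wild type and 32.5 and 33.1% in Pml-/- cells. Of 12705 other tested genes, 5 differed from it by less than 2 percentage points in every library. Gm5039 was closest (largest gap 1.26 points), with 3.57 and 3.40 CPM in wild-type cells against 6.92 and 6.70 CPM. Grb10, an imprinted gene for a signalling adaptor, had nearly the same gap, with 185 and 175 CPM against 324 and 341 CPM. Phlda2 (an imprinted gene), Tagln (an actin-binding protein gene) and Fgf17 (a growth factor gene) followed at 1.38, 1.55 and 1.95 points. Among the copies themselves, the largest gap to the sum was 1.60 points for Zscan4a, 1.46 for Zscan4b and 1.96 for Zscan4d. It was 4.35 points for Zscan4c and 4.96 for Zscan4f, so a gap under 2 points is not a mark of every copy. With 4 libraries in 2 groups, this likeness is a description of these libraries only.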

How the data were processed

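The RNA libraries (2 wild-type, 2 Pml-/-) were grouped by their labels. The submitters' processing notes name cutadapt, TopHat, edgeR and mm10; versions, annotation, strand use and the treatment of reads matching several genes are not stated. Deposited CPM values, made by the authors, were turned back into reads, and 100% came out whole within 0.001 reads. The authors' deposited log2 fold changes, p-values and false discovery rates are quoted as theirs. The main test was limma-trend on log2(CPM + 1) for genes averaging 1 CPM or more, fitted by genotype alone (limma 3.58.1 in R 4.3.3). Alternatives were edgeR 4.0.16 (quasi-likelihood, on recovered reads), pseudocounts of 0.5 and 0.1, no filter, TMM scaling, each library left out and a replicate block. Both tests were tested on simulated data. Promoters were aligned with Biopython 1.88.

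The members, the gene lists and the tests were chosen with earlier results of these data known. Named genes were Pml, the family, up to 4 called members per list by smallest adjusted p, all tested members of lists with at most 5, the 5 most alike profiles and the nearest tested neighbours. Replicates differed beyond sampling noise, with a mean chi-square per gene of 6.01 in wild type and 7.86 in Pml-/- cells.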

Additional observations from a re-analysis of the deposited data

How the results depend on the processing

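The family ratio of 1.91 kept its direction under each alternative run (TMM scaling, without Zscan4a, without each library in turn, 1.76 to 2.08). The count of copies called higher was 4 of 5, and 2 (Zscan4a and Zscan4c) with no filter on low values, where 18761 genes were tested; without 1 library it ran from 2 to 4, with 2 when either knockout library was left out. Zscan4a and Zscan4c passed under all 10 alternatives (highest adjusted p = 0.0366 and 0.0257) and Zscan4f under none (adjusted p of at least 0.157). Of all tested genes, 687 were called, 298 with no filter and 423 to 879 without 1 library. With the replicate number as a block, 1198 genes and the same count of 4 copies were called; the labels do not tie equal numbers together, and the deviations of same-numbered libraries correlated at 0.12 across genes. A sum with further Zscan4 rows was not run, since no such row was analysed. The single copies rest on 33 to 446 reads a library, and each genotype on 2 libraries.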
